A study of Homo sapiens with 6 samples.

Results

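The genes described here are 38 genes of cholesterol and fatty acid synthesis, chosen by name: 19 genes of sterol synthesis and transport, 15 genes that make, lengthen, desaturate or activate fatty acids, and 4 regulators that both branches share. They were measured in LS174T cells, an established mucin-producing line of human colon adenocarcinoma grown in medium with serum. Over 48 h, 3 cultures were given DMSO alone, the solvent used as vehicle, and 3 were given 250 nM CompE. The labels give CompE only as an abbreviation; it usually stands for Compound E, which blocks gamma-secretase, the enzyme whose cut releases the signalling fragment of Notch receptors. Each culture gave 1 Affymetrix U133 Plus 2.0 array. The groups are therefore replicate cultures of a single cell line, at 1 dose and 1 time. Of the 38 genes, 33 were tested, through the brightest probe set that the platform annotation assigns to that gene alone, among 14308 genes in all. CYP51A1, ELOVL1 and FADS1 have only probe sets that the annotation assigns to several genes, and FDFT1 and ACSL3 have none listed in it, so these 5 members have no value here.

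Cells build cholesterol from acetyl-CoA through the mevalonate pathway, which leads to squalene, and then through a series of enzymes that close and trim the sterol rings. Fatty acids are built from the same acetyl-CoA by the carboxylase and the synthase, and are then desaturated, lengthened and joined to coenzyme A. The transcription factors SREBF1 and SREBF2 drive these genes: SCAP escorts them out of the endoplasmic reticulum when sterols are scarce, and INSIG proteins hold them back when sterols are plentiful. Because the genes answer to the same factors, they commonly rise and fall together when the sterol supply of a cell changes.

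The treatment left a clear mark on genes unrelated to lipid synthesis. HES1, a direct Notch target, read 804, 872 and 756 in the DMSO arrays and 307, 306 and 256 in the CompE arrays, a log2 change of -1.49 (limma, adjusted p = 0.00198). ATOH1, the transcription factor of secretory gut cells, changed by 2.61 (adjusted p = 8.92e-04), and OLFM4, a gene of intestinal stem cells, by -2.60 (adjusted p = 2.53e-04). All 10 markers of colon epithelium lay above the background of the arrays, taken as an intensity of 45.7, the 95th percentile over probe sets against Bacillus sequences that human RNA lacks; a gene was placed by its mean log2 over the 6 arrays. They had summed intensities of 37151 to 39386 in DMSO and 37450 to 39004 in CompE. One of them, CDX2, an intestinal transcription factor named after its values were seen, rose from 525, 539 and 553 in DMSO to 716, 745 and 719 in CompE (log2 change 0.43, adjusted p = 0.00873). Its part in the results on lipid genes was not tested. Of the markers of other cell types, 0 of 4 lay above it for adipocytes, 1 of 4 for endothelium, 1 of 5 measured for leukocytes, 2 of 4 for hepatocytes and 4 of 7 for fibroblasts. Their summed intensities overlapped between the groups: 82.2 to 124 in DMSO and 84.4 to 109 in CompE for adipocytes, and 290.3 to 414 and 348 to 356 for fibroblasts. The leukocyte marker PTPRC and the endothelial marker CDH5 lay below background in every array, while CD3D was at 29.8 to 54.6, around that level. The endothelial marker above background was PECAM1, at 143 to 194 over the 6 arrays. The leukocyte marker above it by its mean was CD14, at 40.9 to 65.3. The ratio of 3' to 5' signal for ACTB, a measure of RNA integrity and labelling, was 1.44 ± 0.0201 (SD, n = 3) in DMSO and 1.51 ± 0.0193 (SD, n = 3) in CompE (two-sided exact permutation test, p = 0.1, the smallest that 3 against 3 arrays can give). The same ratio for GAPDH went the other way. It was 0.968 ± 0.0106 (SD, n = 3) in DMSO and 0.946 ± 0.0264 (SD, n = 3) in CompE (two-sided exact permutation test, p = 0.3). The part of these ratios in the results below was not tested.

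Set against that response, the lipid synthesis genes stayed close to their vehicle levels. Of the 33 tested members, 1 rose (SC5D) and 0 fell at a Benjamini-Hochberg adjusted p under 0.05 in limma, while 4.56% of all genes tested rose (653 genes) and 2.57% fell (368 genes). The member count of rises is thus near the share among all genes. Over the 17 alternative settings, the count of members that rose ran from 0 to 5 and the count that fell from 0 to 2. Under an alternative scaling on the hybridisation controls, spiked in at the hybridisation step (mean log2 of 11.61 to 11.63 in the DMSO arrays and 11.69 to 11.83 in the CompE arrays), 340 genes rose and 1552 fell, and the median of all genes moved from 0.020 to -0.12 on the log2 scale. At an unadjusted limma p under 0.05 there were 3 members above DMSO (SC5D, TM7SF2 and ACSL5) and 0 below, against 24.5% of all genes in either direction. Log2 changes are CompE minus DMSO, given ± SE from limma with n = 3 arrays per group throughout. Those of the members ran from -0.11 (FADS2) to 0.26 (SC5D), where the lowest value rests on 1 array (0.043 for FADS2 without CompE replicate 3), with a median of 0.034 and a median size of 0.067. For all genes, the median was 0.020 and the median size 0.12. The 95% interval of every one of the 33 members lay within a 1.5-fold change in either direction, and that of 29 members lay within 1.25-fold. The corresponding shares of all genes were 75.1% and 42.8%. The median SE was 0.062 for the members and 0.082 for all genes. Neither these shares nor the median sizes of change were compared at matched intensity. All 33 members lay above the background level in the means of both groups, as did 11465 of the 14308 genes.

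**Figure D1:**
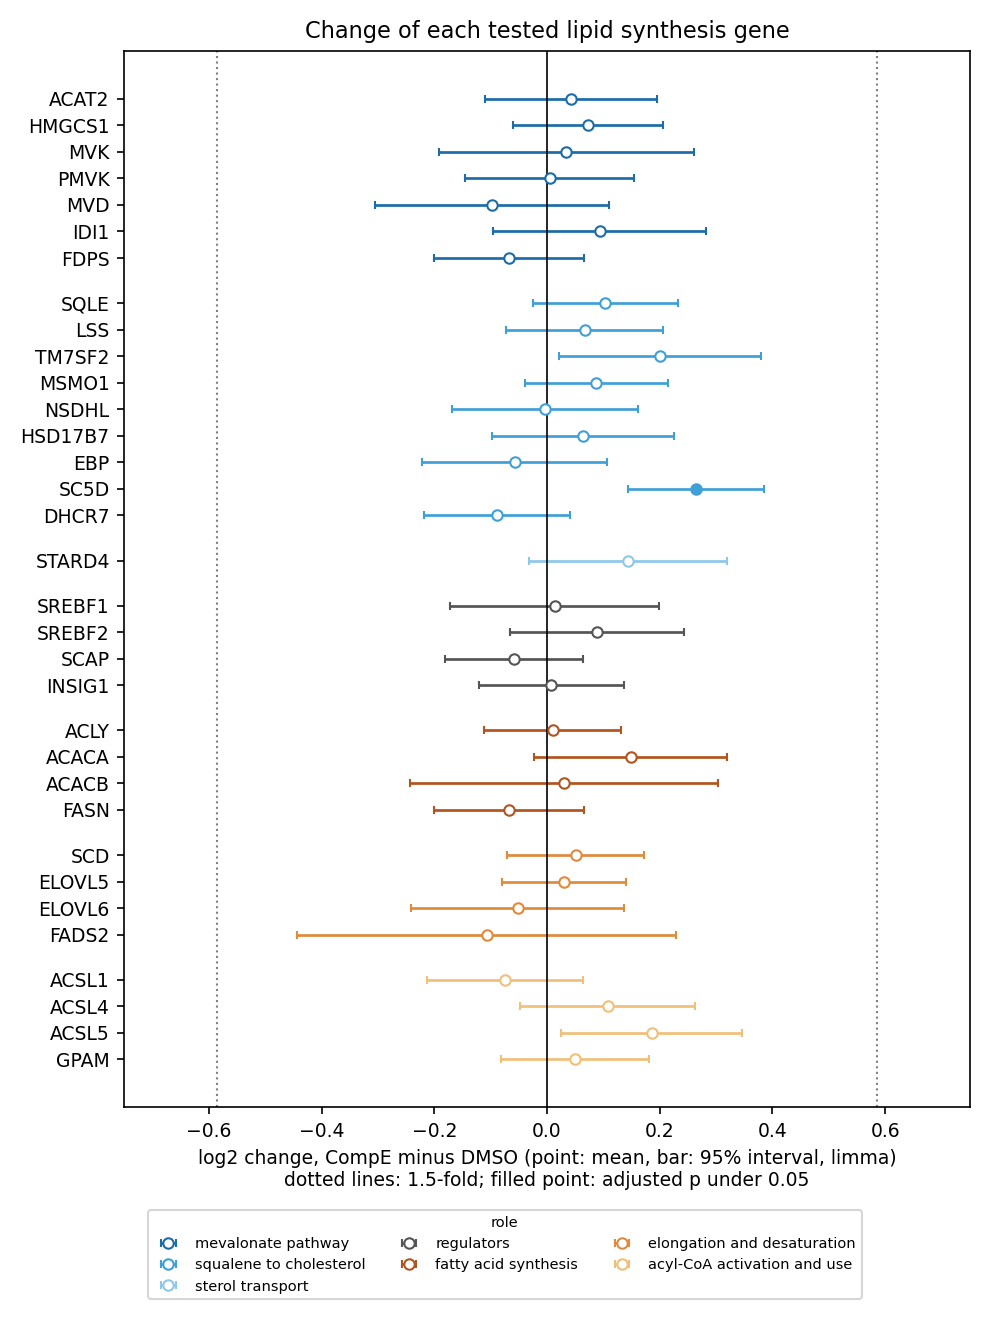
Log2 change (CompE minus DMSO) of the 33 tested members, grouped by role, with the mean as a point and the 95% interval from limma as a bar; dotted lines mark 1.5-fold. The filled point is SC5D, the only member with an adjusted p under 0.05, and every bar lies between the dotted lines. The scaling on the hybridisation controls moves all points, and all other genes, to the left by the same amount, which by its construction turns the sign of 18 small changes.

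The arrays of the groups did not overlap for 8 of the 33 members, each taken through the probe set that stood for it. CompE was higher in every array for 7 of them (HMGCS1, SQLE, TM7SF2, MSMO1, SC5D, STARD4 and ACSL5), where 19.1% of all genes were, and lower in every array for DHCR7 alone, where 13% of all genes were. The member count on the higher side is near the share of all genes. In sign, 23 members were above DMSO and 10 below, and 54.9% of all genes were above. The scaling on the hybridisation controls moves all genes by the same amount, which turned the sign of 18 members with small changes; relative to the median of all genes, the median of the members was 0.014 under both scalings. Over the 17 alternative settings, 5 members were above DMSO in every setting in which they were tested (ACACA, ACSL5, SC5D, STARD4 and TM7SF2), and 6 were below in every such setting (ACSL1, DHCR7, FASN, FDPS, MVD and SCAP).

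In the mevalonate pathway, 0 of 7 tested members rose and 0 fell in limma, with 0 at an unadjusted p under 0.05, against the 4.56%, 2.57% and 24.5% of all genes; with 7 genes, a count of 0 calls is near those shares of called genes. HMGCS1, the synthase that condenses acetyl-CoA into HMG-CoA, read 3387, 3130.2 and 3373 in the DMSO arrays and 3425, 3548 and 3427 in the CompE arrays. The lowest CompE array was above the highest DMSO array by a narrow margin, and the log2 change was 0.073 ± 0.054 (adjusted p = 0.464). The sign turned negative under the scaling on the hybridisation controls (-0.069) and when the probe sets of the gene were averaged (-0.031). IDI1, which isomerises isopentenyl pyrophosphate, had an intensity of 3249.8, 2949.8 and 3340.1 in the DMSO arrays and 3344, 3640.2 and 3193 in the CompE arrays. The groups overlapped, CompE replicate 2 was the highest array, and the log2 change was 0.093 ± 0.077 (adjusted p = 0.516). MVD, the decarboxylase of the pathway, read 440.0, 416 and 377 in the DMSO arrays and 357, 413 and 382 in the CompE arrays, with DMSO replicate 1 the highest array and CompE replicate 1 the lowest. Its log2 change of -0.098 ± 0.084 (adjusted p = 0.538) was the lowest of the sterol branch. FDPS, which makes farnesyl pyrophosphate, stood at 4044, 4089 and 4036 in the DMSO arrays and 3829, 4078 and 3713 in the CompE arrays. The DMSO arrays of FDPS were close together, CompE replicate 2 lay among them, and the other two CompE arrays lay below. Its log2 change was -0.068 ± 0.054 (adjusted p = 0.499), and it passed the threshold as lower only under the scaling on the hybridisation controls (log2 change -0.21, adjusted p = 0.0406; range over its alternatives 0.0406 to 0.722). The thiolase ACAT2, at 0.042 (adjusted p = 0.728), and the kinases MVK, at 0.034 (adjusted p = 0.857), and PMVK, at 0.0046 (adjusted p = 0.974), had log2 changes smaller than those of the genes above.

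The steps from squalene to cholesterol held the only member that passed. SC5D, the sterol desaturase that adds a ring double bond late in the pathway, read 2411, 2359 and 2399.5 in the DMSO arrays and 2965, 2882 and 2768 in the CompE arrays. Every CompE array was above every DMSO array, and the DMSO arrays differed by little. The log2 change was 0.26 ± 0.049 (adjusted p = 0.0349), which is a 1.20-fold rise (95% interval 0.14 to 0.39 on the log2 scale). A rise in RNA per cell and a shift in the share of cells that make the RNA cannot be told apart in such bulk samples. The call is not stable: it was lost on leaving out any single array of the 6, when the adjusted p ran from 0.0570 to 0.121, and over all 17 alternatives the gene passed in 6, with adjusted p from 1.22e-06 to 0.173. The direction was upward in each of them. The 6 settings with a call include the 10896 least variable probe sets, a choice that lowers p by its own construction. Another SC5D probe set read 74.1, 70.4 and 55.5 in the DMSO arrays and 83.5, 82.9 and 93.9 in the CompE arrays, again with no overlap, and a log2 change of 0.39 that did not pass when probe sets were tested (adjusted p = 0.15).

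**Figure D2:**
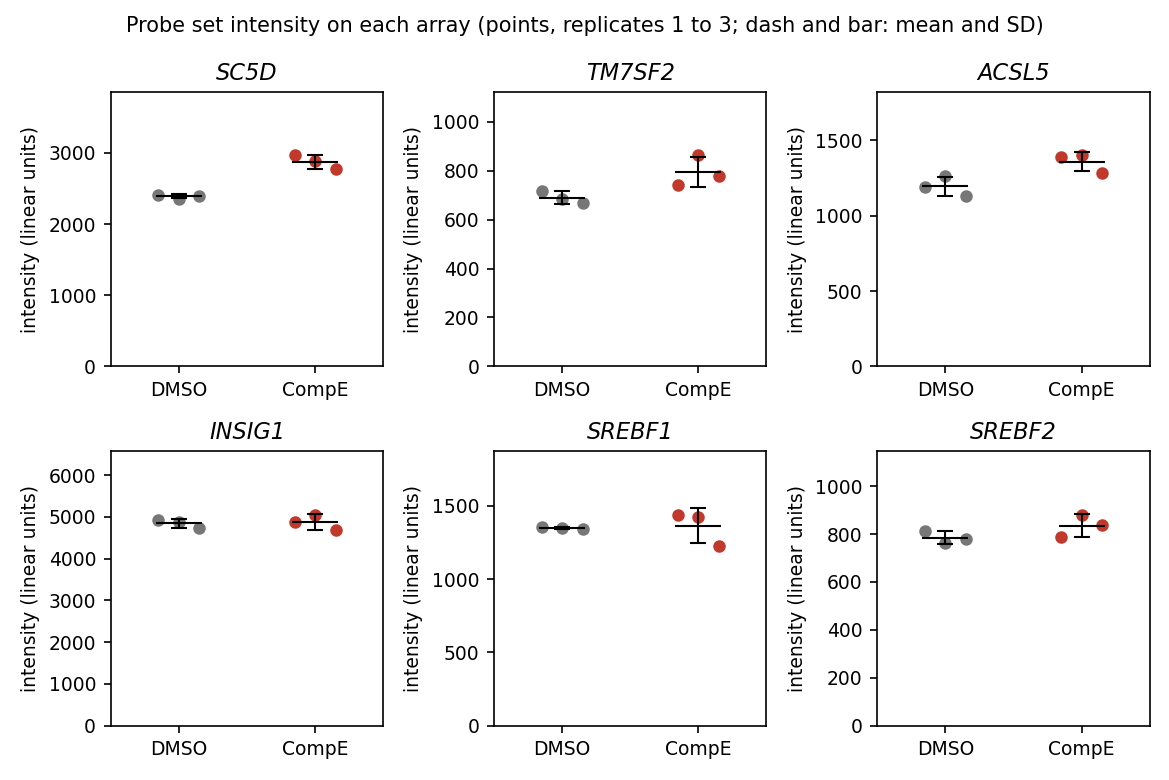
Probe set intensity on a linear scale for SC5D, TM7SF2, ACSL5, INSIG1, SREBF1 and SREBF2, with a point for each of the 3 arrays per group, the mean as a dash and the SD as a bar; every axis starts at 0. The groups do not overlap for SC5D, TM7SF2 and ACSL5, and overlap for the regulators INSIG1, SREBF1 and SREBF2.

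TM7SF2, a sterol reductase that acts after demethylation of lanosterol, read 717, 686 and 667 in the DMSO arrays and 741, 863 and 779.6 in the CompE arrays. CompE replicate 2 was highest and the groups did not overlap, but the log2 change of 0.20 ± 0.073 (adjusted p = 0.164) missed the threshold. SQLE, the epoxidase that acts on squalene and helps set the rate of the pathway, had an intensity of 2545, 2497 and 2636 in the DMSO arrays and 2687, 2859 and 2704 in the CompE arrays. The CompE arrays were all higher by a small margin, and the log2 change was 0.10 ± 0.052 (adjusted p = 0.285). MSMO1, the methylsterol oxidase, stood at 3724, 3502 and 3762 in the DMSO arrays and 3817, 3962 and 3890.0 in the CompE arrays, also without overlap, with a log2 change of 0.087 ± 0.052 (adjusted p = 0.359). DHCR7, the reductase of the last step, went the other way. It read 2011, 2079 and 1909 in the DMSO arrays and 1851, 1902 and 1888 in the CompE arrays, every CompE array below every DMSO array, and its log2 change was -0.088 ± 0.052 (adjusted p = 0.361). Another DHCR7 probe set had a log2 change of -0.066, with overlapping groups. SC5D and DHCR7 act at neighbouring steps of the same route, and their log2 changes had opposite signs in every setting tested. The settings draw on the same arrays, and the difference between these genes was not tested. The remaining enzymes overlapped between the groups: the cyclase LSS at 0.067 (adjusted p = 0.527), the methyl-removing enzymes NSDHL at -0.0034 (adjusted p = 0.982) and HSD17B7 at 0.063 (adjusted p = 0.608), and the isomerase EBP at -0.057 (adjusted p = 0.652). The sign for EBP depends on the probe set. Another one of nearly the same brightness (mean log2 10.7687 against 10.7697) was at 0.030 (limma over probe sets, adjusted p = 0.848). STARD4, a carrier that moves cholesterol between membranes, read 643, 757 and 704 in the DMSO arrays and 758, 777 and 785 in the CompE arrays. The highest DMSO array was just below the lowest CompE array, and the log2 change was 0.14 ± 0.072 (adjusted p = 0.281).

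The regulators that set the output of both branches did not pass, and the groups overlapped for the probe set that stood for each of the 4. SREBF2, the factor with the stronger hold on sterol genes, read 815, 761 and 777 in the DMSO arrays and 786, 881 and 836 in the CompE arrays. CompE replicate 1 lay among the DMSO arrays and the other CompE arrays above them, for a log2 change of 0.089 ± 0.063 (adjusted p = 0.443), with a 95% interval -0.065 to 0.24. Another SREBF2 probe set did separate the groups: it read 719.6, 700.3 and 714 in the DMSO arrays and 751, 867 and 844 in the CompE arrays, a log2 change of 0.20 that did not pass (unadjusted p = 0.031, adjusted p = 0.180 over probe sets). SREBF1, the factor with the stronger hold on fatty acid genes, stood at 1357, 1349 and 1339 in the DMSO arrays and 1441, 1425 and 1228 in the CompE arrays. CompE replicates 1 and 2 were above all DMSO arrays and CompE replicate 3 was below them, with a log2 change of 0.013 ± 0.075 (adjusted p = 0.936), with a 95% interval -0.17 to 0.20. INSIG1, itself a sterol-responsive target as well as the brake on SCAP, had an intensity of 4929, 4866 and 4729 in the DMSO arrays and 4872, 5055 and 4678 in the CompE arrays. The arrays of both groups were interleaved, and the log2 change was 0.0075 ± 0.052 (adjusted p = 0.948), with a 95% interval -0.12 to 0.14. SCAP, the escort protein, read 519.8, 513 and 523 in the DMSO arrays and 503, 513 and 478 in the CompE arrays, with CompE replicate 3 the lowest. The log2 change of SCAP was -0.059 ± 0.050 (adjusted p = 0.523), with a 95% interval -0.18 to 0.063. SCAP passed as lower only under the scaling on the hybridisation controls (log2 change -0.20, adjusted p = 0.0458; range over its alternatives 0.0458 to 0.751).

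The sequence upstream of SC5D, the only member that rose, is shown beside those of SREBF2 and INSIG1, regulators whose arrays overlapped. Each run is the 250 bases before the RefSeq transcription start on the plus strand of GRCh38.p14, 5' to 3', at chr11:121292521-121292770 for SC5D (the first of 2 starts listed), chr22:41832855-41833104 for SREBF2 and chr7:155297628-155297877 for INSIG1. Capitals mark matches on either strand to TCACNCC, the core of a sterol regulatory element bound by SREBF proteins, to CCAAT, the box bound by NF-Y, and to GGGCGG, the box bound by Sp1.
SC5D: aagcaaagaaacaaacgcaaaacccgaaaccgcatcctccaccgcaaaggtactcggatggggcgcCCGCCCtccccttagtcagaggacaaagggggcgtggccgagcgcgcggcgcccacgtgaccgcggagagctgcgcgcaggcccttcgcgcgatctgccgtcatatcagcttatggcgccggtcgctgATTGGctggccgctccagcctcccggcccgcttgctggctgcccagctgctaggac
SREBF2: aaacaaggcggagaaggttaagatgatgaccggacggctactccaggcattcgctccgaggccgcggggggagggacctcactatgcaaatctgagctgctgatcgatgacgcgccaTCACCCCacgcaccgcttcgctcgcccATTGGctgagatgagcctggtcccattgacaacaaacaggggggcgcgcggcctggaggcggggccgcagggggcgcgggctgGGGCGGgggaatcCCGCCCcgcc
INSIG1: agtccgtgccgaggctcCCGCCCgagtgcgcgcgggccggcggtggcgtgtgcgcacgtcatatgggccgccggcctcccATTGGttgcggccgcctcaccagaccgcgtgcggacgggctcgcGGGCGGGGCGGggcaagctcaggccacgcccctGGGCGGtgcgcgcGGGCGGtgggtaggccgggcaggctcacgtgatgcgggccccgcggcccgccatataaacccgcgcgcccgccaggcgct
The SREBF2 run holds TCACCCC and, closer to the start, a CCAAT box read on the opposite strand 106 bases before it. SC5D has a CCAAT box on the opposite strand 56 bases before its start and INSIG1 has one 170 bases before, and neither run holds the sterol element core. INSIG1 has a cluster of Sp1 boxes between 126 and 80 bases before the start, the first pair of which overlap. Over windows that also take in 50 bases after the start, 34 of the 38 members have a RefSeq window in the table used. The sterol element core was present in 9 of the 34 (26.5%), against 18.2% of the 27305 genes in the table; HMGCS1, IDI1 and MSMO1 were among the 9. A CCAAT box was present in 26 of the 34 (76.5%, against 39.7%), and a GGGCGG box in 31 (91.2%, against 48.3%). A gene counted where any of its windows matched. Of the 49 member windows, 10 held the sterol element core, 30 a CCAAT box and 38 a GGGCGG box. The shares of all 35116 windows were 15.5%, 34.6% and 45%. The reference takes in every gene of the table, whether or not these cells express it. By branch, the CCAAT box was found in 14 of 16 sterol genes and 10 of 14 fatty acid genes. These matches are letters in a window and say nothing of binding.

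In the fatty acid branch 0 of 12 tested members rose and 0 fell in limma, with 1 at an unadjusted p under 0.05 (ACSL5), where 4.56% of all genes rose, 2.57% fell and 24.5% had such a p. With 12 genes, 0 calls is near the background. ACLY, which makes cytosolic acetyl-CoA from citrate for both branches, read 3654, 3459 and 3687 in the DMSO arrays and 3568, 3667 and 3635 in the CompE arrays. Its groups were interleaved, with a log2 change of 0.0098 ± 0.049 (adjusted p = 0.928). ACACA, the carboxylase that commits acetyl-CoA to fatty acids, had an intensity of 802, 807 and 749.7 in the DMSO arrays and 904, 908 and 804 in the CompE arrays. The lowest CompE array of ACACA lay just inside the DMSO range, so the groups overlapped, and the log2 change was 0.15 ± 0.069 (adjusted p = 0.257). FASN, the fatty acid synthase, stood at 3189, 3139 and 3093 in the DMSO arrays and 2874, 3149 and 2975 in the CompE arrays; CompE replicate 2 was within the DMSO range and the others below it, with a log2 change of -0.067 ± 0.054 (adjusted p = 0.503). ACACA and FASN catalyse successive steps and their changes had opposite signs in every setting in which both were tested. These settings too draw on the same arrays, and the difference between ACACA and FASN was not tested. Neither passed in the reported setting. ACACA passed as higher in 1 alternative, among the 10896 least variable probe sets (limma, adjusted p = 0.0101, range over its alternatives 0.0101 to 0.955). That choice of probe sets lowers p by its own construction. ACACB, the mitochondrial form of the carboxylase, had arrays between 74.9 and 96.7 against a background of 45.7, and a log2 change of 0.030 (adjusted p = 0.901).

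Among the enzymes that desaturate and lengthen fatty acids, SCD, the stearoyl-CoA desaturase that makes oleate, read 8004, 7974 and 7726 in the DMSO arrays and 8181, 8451 and 7931 in the CompE arrays. The groups overlapped and the log2 change was 0.051 ± 0.049 (adjusted p = 0.583). FADS2, a desaturase of polyunsaturated fatty acids, had the widest interval of all 33 members. It read 2530.4, 2405 and 2580.1 in the DMSO arrays and 2483, 2682 and 1887 in the CompE arrays. CompE replicate 3 was below every other array, and the other two CompE arrays lay within or above the DMSO range, for a log2 change of -0.11 ± 0.14 (adjusted p = 0.684), with a 95% interval -0.44 to 0.23. Without CompE replicate 3 the change turned to 0.043 (adjusted p = 0.732; range over its alternatives 0.166 to 0.811). The elongases ELOVL5, at 0.030 (adjusted p = 0.735), and ELOVL6, at -0.052 (adjusted p = 0.728), overlapped between the groups in the probe set that stood for each. Another ELOVL6 probe set read 776, 779 and 754 in the DMSO arrays and 714, 711 and 719 in the CompE arrays. Its log2 change was -0.11 (limma over probe sets, adjusted p = 0.287). A dimmer ELOVL6 probe set was at -0.14 (limma over probe sets, unadjusted p = 0.047, adjusted p = 0.222). In both, every CompE array was below every DMSO array.

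The acyl-CoA genes gave the largest positive value of the branch. ACSL5, an acyl-CoA synthetase abundant in the intestine, read 1188, 1263 and 1133 in the DMSO arrays and 1389.5, 1401 and 1285 in the CompE arrays. Every CompE array was above every DMSO array, with a log2 change of 0.19 ± 0.065 (adjusted p = 0.156), with a 95% interval 0.025 to 0.35. Another ACSL5 probe set had a log2 change of only 0.051, with overlapping groups. ACSL4, which favours arachidonic acid, was at 0.11 (adjusted p = 0.354), and ACSL1, the synthetase prominent in fat, liver and muscle, at -0.075 (adjusted p = 0.471); both overlapped. GPAM, which starts glycerolipid synthesis from acyl-CoA, was at 0.050 (adjusted p = 0.621). Under another variance prior (intensity trend, robust), SC5D, TM7SF2 and ACSL5 all passed as higher.

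The sterol branch and the fatty acid branch were then set side by side. The median log2 change was 0.063 over the 17 sterol genes and 0.030 over the 12 fatty acid genes, where that of all genes was 0.020. These medians became -0.079, -0.11 and -0.12 under the scaling on the hybridisation controls, a shift common to all genes. Relative to all genes the branches stood at 0.043 (sterol) and 0.0098 (fatty acid). These values turned to -0.028 and -0.013 with the mean of a gene's probe sets, and the sterol value was 0.022 with probe sets not ending in _x_at or _s_at, 0.019 without DMSO replicate 2 and 0.022 without CompE replicate 2. The sterol value was 0.051 without DMSO replicate 1, 0.038 without DMSO replicate 3, 0.061 without CompE replicate 1 and 0.047 without CompE replicate 3. The fatty acid value was -0.0023 without DMSO replicate 1, 0.024 without DMSO replicate 2, 0.016 without DMSO replicate 3, 0.0051 without CompE replicate 2 and -0.0010 without CompE replicate 3. By array, the median deviation of the sterol genes from their DMSO mean was 0.025, -0.019 and 0.0060 in the DMSO arrays and 0.056, 0.069 and 0.016 in the CompE arrays. The fatty acid genes had 0.017, 0.011 and -0.0024 in DMSO and 0.013, 0.043 and 0.037 in CompE. CompE replicate 3 lay below DMSO replicate 1 for the sterol genes, and CompE replicate 1 below DMSO replicate 1 for the fatty acid genes, so the groups overlapped in both branches. The difference between the branch medians, sterol minus fatty acid, was 0.034. It turned to -0.0051 without DMSO replicate 2 and to -0.015 when all probe sets of a gene were averaged, and it has no test here. CompE replicate 2 was the highest array for 12 of the 33 members (36.4%), against 22.8% of all genes, and DMSO replicate 2 was the lowest for 10 (30.3%), against 20.5%.

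**Figure D3:**
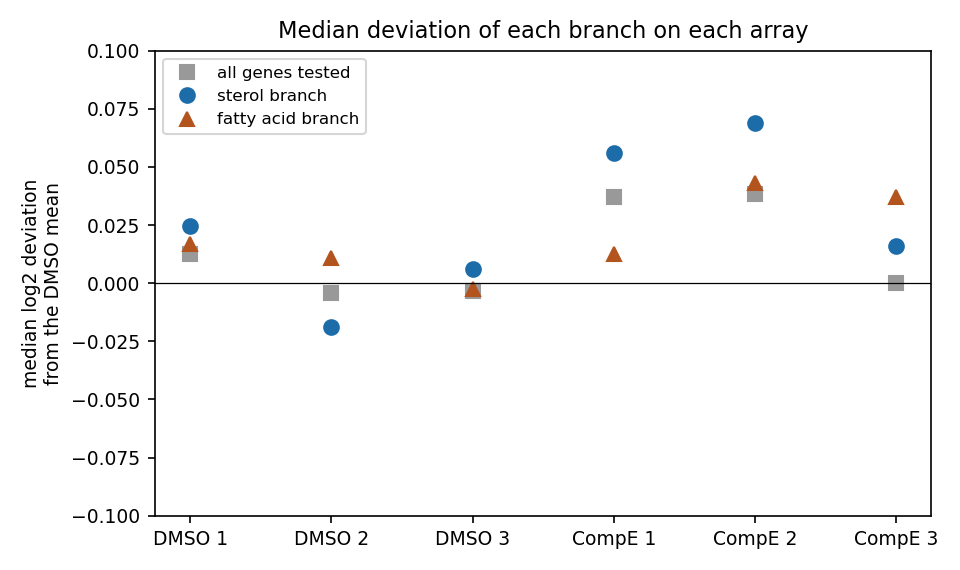
Median log2 deviation from the DMSO mean on each of the 6 arrays, for the 17 sterol genes, the 12 fatty acid genes and all 14308 genes tested. The points of every list lie between -0.019 and 0.069, the CompE points of the sterol genes are not all above the DMSO points, and the fatty acid points of the groups overlap; the scaling on the hybridisation controls turns the branch medians to -0.079 and -0.11.

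The other probe sets of the members varied more widely. The 33 members had 80 probe sets of their own, 73 of them past the filter on dim values, and 0 of these 73 passed when all 26962 probe sets were tested in limma, where 2.72% of all probe sets were higher and 1.55% lower. The 40 that did not stand for their gene ran from -0.32 (EBP) to 0.50 (ACACB), both of them not above background. The 33 of the 40 above background ran from -0.30 (SQLE) to 0.39 (SC5D), and 25 of them lay within 0.2 of no change. For SQLE, the values of the 4 probe sets ran from -0.30 to 0.10. The lowest of them read 641, 673 and 639 in the DMSO arrays and 583, 522 and 485 in the CompE arrays, all CompE arrays below all DMSO arrays (unadjusted p = 0.011, adjusted p = 0.107), opposite in sign to the SQLE probe set described above. For SREBF2 the 3 probe sets ran from -0.26 to 0.20. SREBF1 had 2 probe sets at 0.013 each, and the 3 of INSIG1 ran from -0.062 to 0.0075. The further probe sets of SQLE, EBP, ACACB, ELOVL6 and DHCR7 were chosen for mention after their values were seen.

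Further genes of lipid metabolism were taken from lists of related enzymes, carriers and receptors. Of 20 tested genes in the list of other sterol genes, 0 rose and 0 fell in limma. In that list 4 had an unadjusted p under 0.05, 3 of them above DMSO and 1 below. Not every gene in it is confined to sterol handling. The smallest p there was that of ACAT1, the mitochondrial thiolase of ketone body metabolism, which read 1743, 1756 and 1748 in the DMSO arrays and 2179.5, 2085 and 1972 in the CompE arrays. The groups did not overlap, and the log2 change of 0.25 ± 0.055 (adjusted p = 0.0546) fell short of the threshold. Of 30 tested genes of fatty acid supply and glycerolipid synthesis, 1 rose and 3 fell, with 6 above and 5 below at an unadjusted p under 0.05. Over all genes, 4.56% rose, 2.57% fell and 24.5% had an unadjusted p under 0.05. The median size of change was 0.14 in this list and 0.12 over all genes.

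ME1, the malic enzyme that supplies NADPH for fatty acid synthesis, fell. It read 1922, 1753 and 1735 in the DMSO arrays and 1326, 1303 and 1250.5 in the CompE arrays, a wide gap between the groups, and its log2 change was -0.48 ± 0.061 (adjusted p = 0.0127). ACSS2, the synthetase that turns acetate into acetyl-CoA, fell as well, from 809, 768 and 744 in the DMSO arrays to 636, 536 and 605 in the CompE arrays. The groups were well apart, with a log2 change of -0.39 ± 0.079 (adjusted p = 0.0448). DGAT1, which adds the last acyl chain of triglyceride, read 931, 957 and 879.8 in the DMSO arrays and 734, 777 and 754 in the CompE arrays, all CompE arrays lower, with a log2 change of -0.29 ± 0.055 (adjusted p = 0.0374). LPIN2, a phosphatidate phosphatase of the same route, rose. It read 216, 231 and 208 in the DMSO arrays and 322, 275 and 289 in the CompE arrays, with no overlap and a log2 change of 0.43 ± 0.079 (adjusted p = 0.0334). On leaving out 1 array at a time, ME1 passed in 4 of 6 cases and was lost without DMSO replicate 2 (adjusted p = 0.0517) or CompE replicate 1 (adjusted p = 0.0563), within a range of 0.0432 to 0.0563. LPIN2 (0.0590 to 0.106), DGAT1 (0.0784 to 0.129) and ACSS2 (0.0835 to 0.130) were lost whichever array was left out. ME1, ACSS2 and DGAT1 had negative log2 changes and LPIN2 a positive one in every alternative in which they were tested. LPIN2 and SC5D stayed positive under the scaling on the hybridisation controls too. That scaling lowers every gene by the same amount, so it could not turn the negative changes of ME1, ACSS2 and DGAT1.

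**Figure D4:**
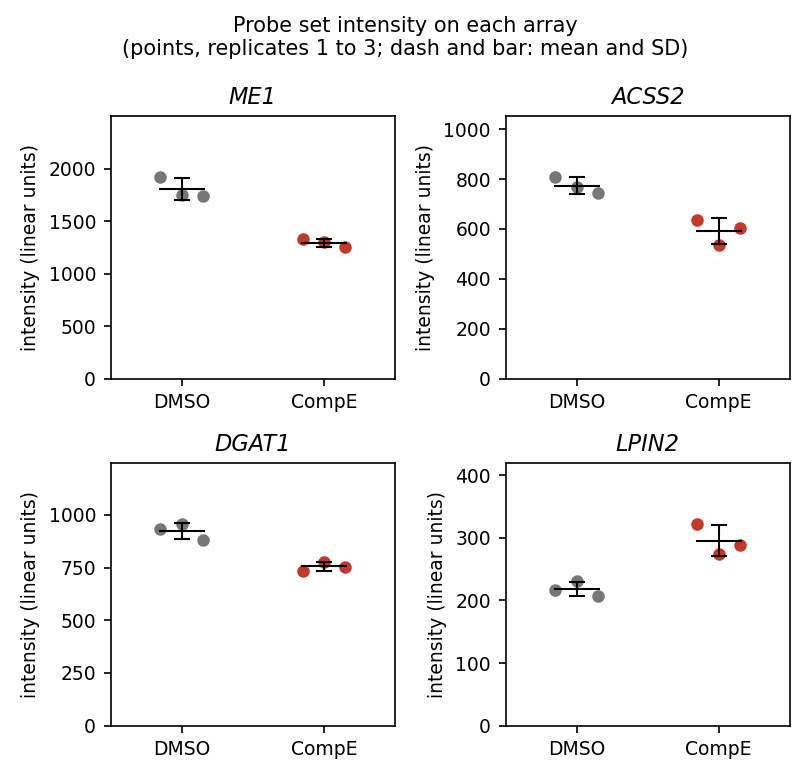
Probe set intensity on a linear scale for ME1, ACSS2, DGAT1 and LPIN2, with a point for each of the 3 arrays per group, the mean as a dash and the SD as a bar; every axis starts at 0. The CompE arrays lie below the DMSO arrays for ME1, ACSS2 and DGAT1 and above them for LPIN2, with no overlap.

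In the plot of cumulative shares, the changes of both member branches rise steeply around 0, between -0.11 and 0.26, while those of the 30 related fatty acid and glycerolipid genes run from -0.48 to 0.43. The 20 other sterol genes run from -0.42 (ABCA1, not above background) to 0.25. The lists differ in size, and the median SE was 0.062 for the 33 members and 0.079 for the 30 related genes. The difference in spread between these lists has no test here. Of the 30 related genes 27 lay above background in both groups, as all 33 members did.

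**Figure D5:**
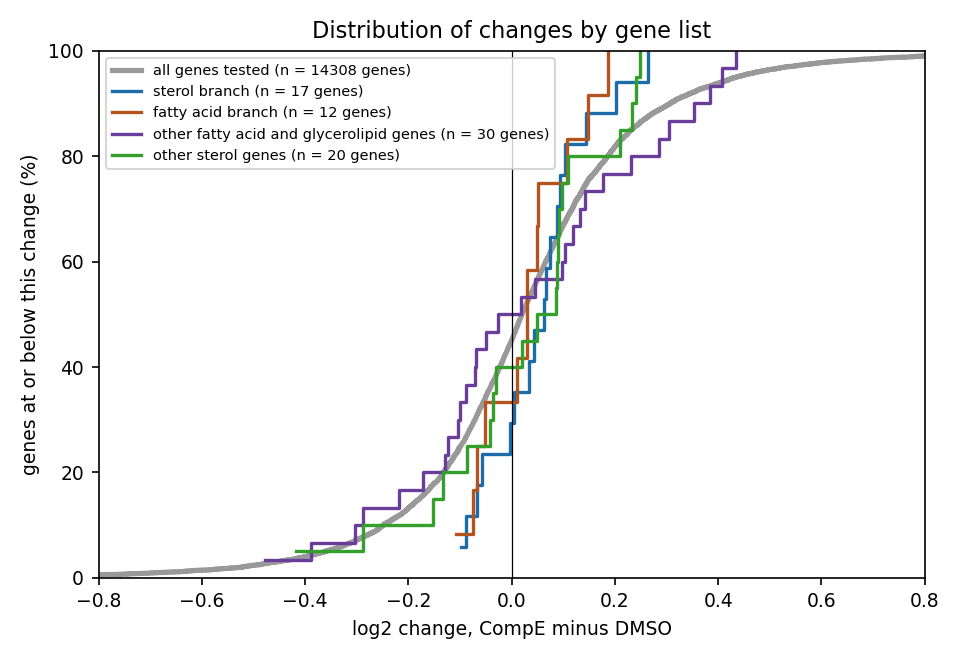
Share of genes (%) at or below each log2 change (CompE minus DMSO) for all 14308 genes tested, the 17 sterol genes, the 12 fatty acid genes, the 20 other sterol genes and the 30 other fatty acid and glycerolipid genes. The member lines span -0.11 to 0.26, the line of the other sterol genes -0.42 to 0.25, and that of the other fatty acid and glycerolipid genes -0.48 to 0.43. The scaling on the hybridisation controls shifts all lines left together.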

How the data were processed

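RNA of 6 LS174T cultures, 3 per group as named in the sample titles, was amplified and labelled with biotin from the 3' end, per the labels' protocols. The authors deposited a linear intensity for each probe set, normalized between arrays with dChip, per the series design text; its model and version are not stated in the sources used here. For the present work, intensities below 1 were set to 1, log2 was taken, and the lowest 40% of probe sets by mean log2 (below 4.61, an intensity of 24.4) were left out, which left 32767. Probe sets were named from the 2016 platform annotation, with symbols updated through Entrez identifiers to those of RefSeq. The probe set of 1 gene with the highest mean log2 stood for its gene. CompE was compared with DMSO by limma 3.58.1 in R 4.3.3 (lmFit and eBayes, two-sided, no covariate), with Benjamini-Hochberg adjustment over 14308 genes; a gene rose or fell where the adjusted p was under 0.05. The procedure was tested on simulated data. Precision is limited by the number of arrays, with a median SE of 0.08 for a log2 change. P-values measure the spread between cultures of 1 line.

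The members, the related lists and the tests were chosen with earlier results of these data known. Every member is accounted for. From each related list up to 4 genes that passed were named, smallest p first, or the gene with the smallest p where none passed; HES1, ATOH1 and OLFM4 served as checks of the treatment. Alternatives changed the filter, the scaling, the added constant, the choice of probe set, the variance prior, the replicate block and the arrays included. Promoter windows of 300 bases (250 before to 50 after the start) came from RefSeq on GRCh38.p14, matched by symbol; both strands were searched, and matches of different motifs may share bases.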

Additional observations from a re-analysis of the deposited data

How the results depend on the processing

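SC5D rose in the reported setting and in 6 of 17 alternatives. The count of members that rose was 0, as was that of the sterol branch, with no filter on dim values, with the scaling on the hybridisation controls, with the mean of a gene's probe sets, with probe sets not ending in _x_at or _s_at, with the replicate block, and without any 1 of the 6 arrays (0 to 0). It was 5 among the 10896 least variable probe sets (sterol 3, fatty acid 2), a choice that lowers p by its own construction, and 3 with the intensity trend and robust prior (sterol 2, fatty acid 1). The scaling on the hybridisation controls gave 2 members that fell, 1 of them in the sterol branch, and medians of -0.079 (sterol) and -0.11 (fatty acid). The fatty acid median was 0.016 after quantile normalization, 0.014 with median centring and -0.0019 with the mean of probe sets (sterol -0.017), and ran from 0.019 to 0.045 on leaving out arrays, highest without DMSO replicate 2. The sterol median ran from 0.039 without CompE replicate 2 to 0.081 without CompE replicate 3, and was 0.040 without DMSO replicate 2. The cause was not tested. Placing the regulators in the branches changed no count. Arrays with the same replicate number did not deviate together (correlations of deviations -0.104 to 0.0246). Such values cannot show whether those cultures were handled together. With the replicate block SC5D had an adjusted p of 0.143 in limma, and 70 genes rose and 32 fell in all. Over all genes, 653 rose and 368 fell; the counts were 242 and 121 with no filter, 1117 and 634 with the stricter filter, 340 and 1552 on the hybridisation controls, 1761 and 1159 among the least variable probe sets and 1402 and 852 with the trend and robust prior. Without CompE replicate 1 they were 162 and 90, and without CompE replicate 3 they were 352 and 167, the extremes over the 6 arrays. Of the single-member values over all alternatives, 499 kept their side of the threshold or moved by less than 1 SD, 11 lost a call, 8 gained one, 38 moved further and 0 called values reversed. The interval of ACACB, near background, spans -0.24 to 0.30.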

Other observations

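In the list of other sterol genes, 3 besides ACAT1 came near the threshold without passing it. They are named after their values were seen. NPC2, which hands cholesterol out of lysosomes, read 2709, 2807 and 2733 in the DMSO arrays and 3254, 3191 and 3099.8 in the CompE arrays, a log2 change of 0.21 ± 0.047 (adjusted p = 0.0575) in limma. CYB5B, an outer mitochondrial cytochrome, read 1641, 1754 and 1621 in the DMSO arrays and 2009, 2008 and 1913 in the CompE arrays, at 0.24 (adjusted p = 0.059). NR1H3, the oxysterol receptor LXR alpha, went the other way, with 303, 279 and 258 in the DMSO arrays and 235, 224 and 228 in the CompE arrays, at -0.29 (adjusted p = 0.0733). The groups of all 3 genes were apart. ABCA1, a cholesterol exporter, was not above background in either group.

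Within the fatty acid and glycerolipid list, the genes at the last step of triglyceride synthesis had log2 changes of opposite sign. DGAT1 fell, and DGAT2, which catalyses the same reaction, read 358, 304 and 349 in the DMSO arrays and 449, 468 and 376 in the CompE arrays, at 0.35 (adjusted p = 0.119), with no overlap; the difference between them was not tested. ELOVL7, an elongase of saturated long chains, read 244, 231 and 254 in the DMSO arrays and 308, 305 and 275 in the CompE arrays, at 0.28 (adjusted p = 0.0682), also apart. PLIN2, the coat protein of lipid droplets, was at -0.026 (adjusted p = 0.875).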
